A study of Acipenser schrenckii with 2 samples.

Results

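The family of miR-15, miR-16 and miR-457 was read here by 20 of the 663 miRNA probes on a single-colour chip hybridised with gonad RNA of Amur sturgeon (Acipenser schrenckii). A probe was counted as a member where its name, without the species prefix, began with miR-15, miR-16, miR-195, miR-457 or miR-497 followed by a non-digit or nothing; no miR-195 or miR-497 probe met this rule. The chip held 9 miR-15 probes, 6 miR-16 probes and 5 miR-457 probes, each spotted 5 times, and the names and targets were the same in the files of both arrays. One array carried RNA of a male gonad and the other RNA of a female gonad, each from 1 fish of 11 months and normal condition, which the labels describe as earlier sex differentiation. The labels name no strain or treatment. Each sample is the whole gonad of 1 animal on 1 array, so a difference between these 2 fish cannot be told apart from one between the arrays.

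Members of the miR-15/16 family share a seed, the stretch at bases 2 to 8 of a mature miRNA that pairs with target mRNAs. In mammals they lower the output of genes that drive entry into the cell cycle, such as cyclin D1, cyclin E and CDK6, and of the survival gene BCL2. The miR-457 members are known from fishes and carry the same seed, and miR-103 and miR-107 hold the same letters shifted by a single base.

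The targets shown here are those on which the comparisons below turn, with bases 2 to 8 in capitals. They are the sequences that the chip was designed against, from zebrafish (dre), common carp (ccr), channel catfish (ipu), Japanese killifish or medaka (ola) and fugu (fru). The sturgeon sequence may differ, and positions in its genome were not analysed here.
dre-miR-16a: uAGCAGCAcguaaauauuggug
dre-miR-16b: uAGCAGCAcguaaauauuggag
ola-miR-16: uAGCAGCAcguaaauauuggc
dre-miR-16c: uAGCAGCAuguaaauauuggag
ccr-miR-16c: uAGCAGCAuguaaauauugga
dre-miR-457b: aAGCAGCAcauaaauacuggag
ccr-miR-457b: aGCAGCACauaaauacuggag
dre-miR-457a: aAGCAGCAcaucaauauuggca
ipu-miR-457b: uAGCAGCAcaucaauauuggca
ccr-miR-457a: aGCAGCACaucaauauuggc
dre-miR-15a-5p: uAGCAGCAcagaaugguuugug
dre-miR-15b: uAGCAGCAcaucaugguuugua
fru-miR-15b: uAGCAGCGcaucaugguuugua
Of the 20 members, 14 had the seed AGCAGCA, and no probe outside the family had it at bases 2 to 8 (14 of 663 probes, 2.11%). Both dre-miR-15c and fru-miR-15b had AGCAGCG. In ccr-miR-457a and ccr-miR-457b the target began a base later, so bases 2 to 8 read GCAGCAC. The target of ipu-miR-16c began with an extra base (seed CAGCAGC), and dre-miR-15a-3p, the only probe named for the opposite arm of the hairpin, had AGGCCGU. The name ipu-miR-457b did not follow its sequence: its target differed from that of dre-miR-457a by A1U alone (positions counted from the 5′ end), and it held the whole target of ccr-miR-457a. The deposited annotation listed the target of dre-miR-16b for 5 fish species, more than for any other member.

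**Figure D1:**
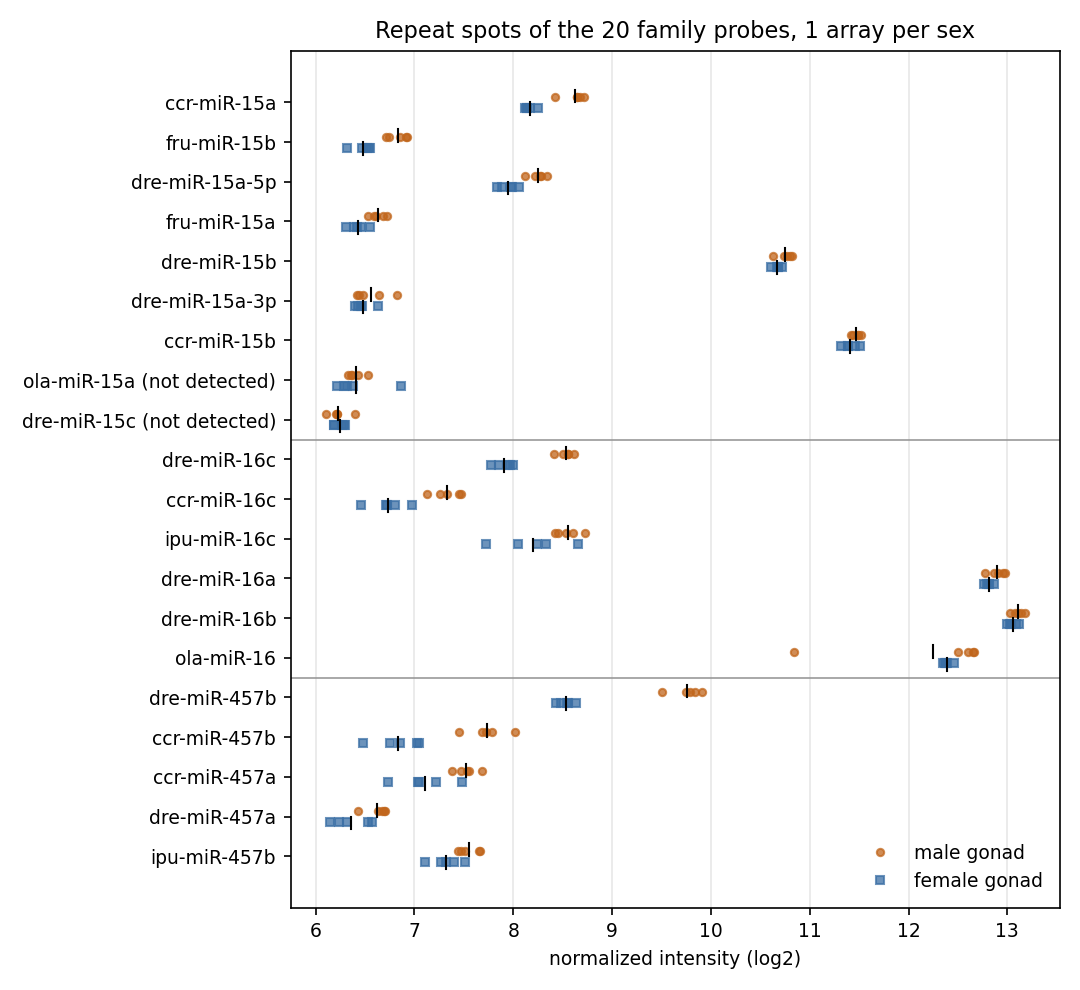
Normalized log2 intensity (horizontal axis) of each of the 5 repeat spots of the 20 family probes, in the male gonad (circles, upper row of each pair) and the female gonad (squares, lower row); black ticks are means over spots, and the grey lines part miR-15, miR-16 and miR-457. The spots of dre-miR-457b separated by array, those of dre-miR-16a and dre-miR-16b overlapped, and 1 male spot of ola-miR-16 lay far below its other 4.

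After quantile normalization most family probes read slightly higher in the male gonad, and 1, dre-miR-457b, was higher by more than 2-fold. Of the 20 probes, 18 were detected on at least one array and 15 on both. Differences between male and female ran from -0.14 to 1.23 on the log2 scale with a median of 0.28, beside -0.06 over the 490 detected probes of the chip. They lay above 0 for 17 of the 18 detected members, where 43.1% of all detected probes did. That count depended on the scaling: it was 11 of 18 when the arrays were scaled to their 75th percentile, with dre-miR-16a, dre-miR-16b, dre-miR-457a, dre-miR-15a-3p, fru-miR-15a, fru-miR-15b and ola-miR-16 then below 0, and 16 of 18 in the authors' deposited table. Detection enters the count too: dre-miR-457a (0.27) and fru-miR-15a (0.20) were detected on the male array only, and dre-miR-15a-3p (0.08) on the female array only. The members left out as not detected, dre-miR-15c (-0.02) and ola-miR-15a (-0.01), were below 0. To count as higher in a gonad, a probe had to be detected there, to differ by 1 or more (log2), and to have spots that did not overlap with those of the other array. By this rule 1 of 18 members was higher in the male gonad, against 4.69% of all detected probes, and 0 of 18 were higher in the female gonad, against 1.63%. Of the normalized spots, every male spot lay above every female spot in 7 of 18 members (19.4% of all detected probes). The reverse held in 0 of 18 (23.7%). These 7 were the zebrafish and carp probes of miR-457b, miR-16c and miR-15a, with fru-miR-15b. The zebrafish and carp partners have nested targets, and such probes count separately in all these counts, so they are not independent readings. With 1 fish and 1 array per sex no test was possible and no p-value is given. Each ± value on an array is the SD over the 5 spots of a probe. For a difference, the ± value is the root of the summed squares of both arrays' SDs. These SDs hold spot error only and describe single spots, so the spot error of a mean over 5 spots is smaller. In whole gonads, fewer cells of a type and less RNA per cell cannot be told apart.

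The miR-457 probes had the widest spread, and they parted by the sequence of the target. The zebrafish probe dre-miR-457b read 943 to 1244 in raw intensity on the male array, with a median of 1142, against 268 to 306 with a median of 288 on the female array. Every male spot was thus above every female spot, and this also held after normalization. Raw separation alone was not particular to this probe, since the male array was brighter (median log2 before normalization 8.18, female 7.47). Raw spots of dre-miR-16b, for example, were also apart (lowest male 9264, highest female 8168). After normalization dre-miR-457b read 9.76 ± 0.15 in the male gonad and 8.53 ± 0.08 in the female. The difference was 1.23 ± 0.17 or 2.35-fold, number 17 in order among the 490 detected probes. Above the median of empty spots and before normalization the values were 1043 and 199, a ratio of 5.24. The carp probe ccr-miR-457b, whose target is that of dre-miR-457b without its first base, read 7.73 ± 0.21 in the male gonad and 6.83 ± 0.23 in the female. Its difference of 0.90 ± 0.31 missed the limit of 1, and its spots did not overlap. Above empty spots it read 206 in the male gonad and 36.4 in the female, a ratio of 5.67.

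The 3 probes with the miR-457a sequence differed less between the gonads on the scanner values. Above empty spots and before normalization their male to female ratios were 3.38 for ccr-miR-457a, 2.84 for ipu-miR-457b and 2.93 for dre-miR-457a. After normalization the male and female gonads gave 7.52 ± 0.11 and 7.10 ± 0.27 for ccr-miR-457a, a difference of 0.42. For ipu-miR-457b they gave 7.55 ± 0.10 and 7.32 ± 0.15, a difference of 0.23. The normalized spots of both probes overlapped between the arrays, but the raw spots did not. Raw spots ran from 226 to 274 in the male gonad and 108 to 171 in the female for ccr-miR-457a. For ipu-miR-457b they ran from 236 to 271 and 129 to 165. Detected on the male array only, dre-miR-457a gave 6.63 ± 0.11 in the male gonad and 6.36 ± 0.19 in the female, with overlapping spots. Its lower bound after quantile normalization was 1.15-fold, and with scaling to the 75th percentile of all probes it differed by -0.29. The miR-457b targets (dre-miR-457b and ccr-miR-457b) averaged a difference of 1.07 and the miR-457a targets 0.30, a gap of 0.76. The zebrafish forms are separated by C12A, U17C, C21A and A22G, from miR-457a to miR-457b, all outside the seed. In 15 of 16 alternative ways to process the intensities both miR-457b targets stayed above all 3 miR-457a targets. The exception was plain subtraction of the empty-spot median, under which dre-miR-457a, at 12.9 above empty spots on the female array, differed by 1.47. The 16 ways are not independent. They include leaving out each repeat spot in turn. Those without normalization, with either 75th percentile scaling or with scaling to control probes shift all probes of an array alike. The order of probes is the same in these by construction. The authors' table entered the count of 16 with 50 added to each value. As deposited, its ratio for dre-miR-457a was 9.11, above those of dre-miR-457b (2.94) and ccr-miR-457b (3.85).

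Among the miR-16 probes a like division appeared between the zebrafish and carp miR-16c probes and the bright probes. The bright probes dre-miR-16a and dre-miR-16b differed little between the gonads: dre-miR-16b had 13.11 ± 0.06 in the male gonad and 13.05 ± 0.05 in the female, and dre-miR-16a had 12.89 ± 0.08 and 12.81 ± 0.04 in the same order. After normalization their spots overlapped between the arrays, and their differences of 0.05 and 0.08 were no larger than the spot SD of the difference. Their raw spots did not overlap. They ran from 8035 to 9223 in the male gonad and 6167 to 6577 in the female for dre-miR-16a. For dre-miR-16b they ran from 9264 to 10250 and 7498 to 8168. The target of dre-miR-16c differs from that of dre-miR-16b by C9U alone, yet it read 8.53 ± 0.07 in the male gonad and 7.91 ± 0.09 in the female. Its raw spots ran from 482 to 551 in the male gonad and 191 to 220.1 in the female. Its normalized spots did not overlap either, and the normalized difference was 0.62 ± 0.12 or 1.54-fold. The shorter probe of the same sequence, ccr-miR-16c, gave 7.33 ± 0.14 in the male gonad and 6.73 ± 0.19 in the female, a difference of 0.59 with no overlap of spots. Both of these miR-16c probes stayed above dre-miR-16a, dre-miR-16b and ola-miR-16 in 16 of 16 alternatives, which are not independent. The gap between the means of the groups was 0.61 (0.41 to 1.04 over the alternatives). The gap of 0.61 includes ola-miR-16 at -0.14, a value that 1 stray male spot lowered from 0.23. The catfish probe ipu-miR-16c, with another target and a difference of 0.35, was in neither group.

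The remaining miR-16 probes carried uneven spots. On the male array the medaka probe ola-miR-16 had 4 raw spots between 7045 and 7893 and 1 of 2243, while the female spots ran from 4229 to 4550. Its mean difference of -0.14 ± 0.79, the only value below 0 among the detected members, became 0.23 without that repeat. The catfish probe ipu-miR-16c read 8.55 ± 0.12 in the male gonad and 8.20 ± 0.34 in the female, and its difference of 0.35 was within the spot SD of 0.36. Aligned without gaps, 9 of 20 bases of its target differ from dre-miR-16b. An extra base in its target puts the later bases out of step, so an alignment with a gap, not made here, would lower this count.

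The miR-15 probes held no member past the size rule, and in the zebrafish and carp probes miR-15a differed more than miR-15b. The carp probe ccr-miR-15a read 8.62 ± 0.11 in the male gonad and 8.16 ± 0.05 in the female, and dre-miR-15a-5p, a base longer, read 8.25 ± 0.08 and 7.95 ± 0.08 in the same order. Their differences of 0.46 ± 0.13 and 0.30 ± 0.12 came with no overlap of spots. The brighter miR-15b pair was ccr-miR-15b with 11.47 ± 0.04 in the male gonad and 11.41 ± 0.07 in the female, and dre-miR-15b with 10.75 ± 0.07 and 10.67 ± 0.04. After normalization the spots of each overlapped between the arrays, though the raw spots did not, and the differences were 0.06 and 0.08. The miR-15a pair lay above the miR-15b pair in 16 of 16 alternatives, again not independent, by 0.31 here. The pufferfish probes were in neither pair and had the opposite order, 0.20 for fru-miR-15a and 0.35 for fru-miR-15b. The pufferfish form fru-miR-15b, which departs from dre-miR-15b by A8G inside the seed, was dim and differed by 0.35 ± 0.14 without overlap of spots, with 6.83 ± 0.10 in the male gonad and 6.48 ± 0.10 in the female. The probe fru-miR-15a, detected on the male array only, read 6.63 ± 0.08 there and 6.42 ± 0.09 in the female gonad, with overlapping normalized spots. Its lower bound of 1.15-fold equalled its measured ratio. With scaling to the 75th percentile of all probes it differed by -0.34. The opposite arm, dre-miR-15a-3p, was detected only on the female array, and its values of 6.56 ± 0.17 in the male gonad and 6.48 ± 0.09 in the female overlapped. Neither ola-miR-15a (6.40 ± 0.08 in male, 6.41 ± 0.26 in female) nor dre-miR-15c (6.23 ± 0.11 in male, 6.24 ± 0.06 in female) was detected on either array.

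**Figure D2:**
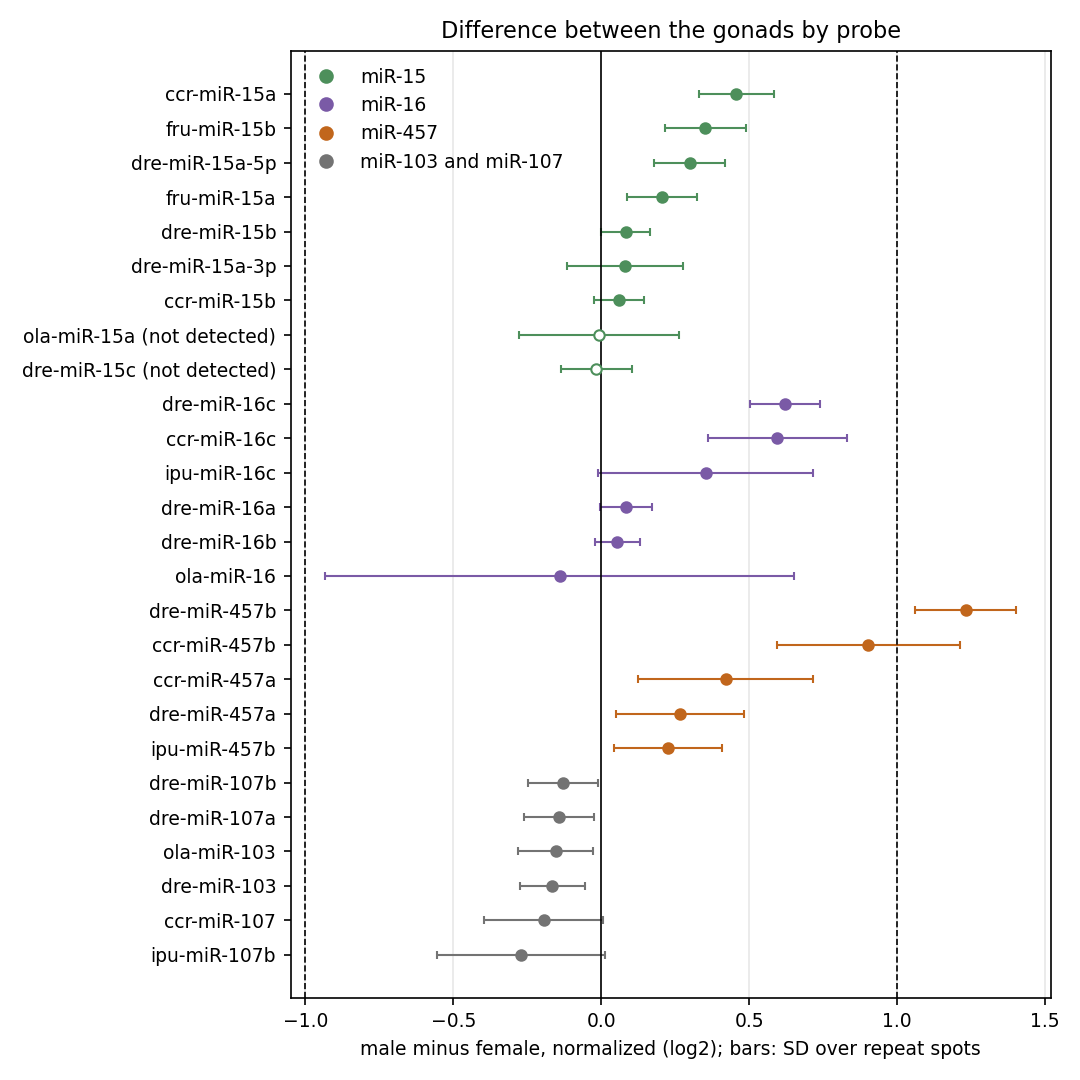
Difference of normalized log2 intensity, male minus female, for the 20 family probes and the 6 probes of miR-103 and miR-107; bars are the spot SD of the difference (root of the summed squares of both arrays' SDs over 5 spots), dashed lines mark the size limit of 1, and open points were not detected. Only dre-miR-457b lies past 1, ccr-miR-457b is at 0.90, and the 6 grey probes lie, after quantile normalization, between -0.27 and -0.13.

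Probes of almost the same target gave a check within the family. There were 6 pairs of detected members whose targets were nested, with up to 2 bases more in the longer, and the differences of such partners were 0.02 to 0.33 apart, with a median of 0.16. Over 182 such pairs elsewhere on the chip the median was 0.14, and the values ran up to 1.49. The widest family pair was dre-miR-457b with ccr-miR-457b. Of 5 family pairs of equal length that differ by 1 base, dre-miR-16b with dre-miR-16c was the widest at 0.57, and the other 4 were 0.03 to 0.27 apart. For 69 other such pairs on the chip the median was 0.34 and the highest 1.89. The gap at miR-16c thus lay within the range seen for single-base pairs elsewhere.

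After quantile normalization the difference between the gonads was larger in the dimmer members than in the brightest. The 490 detected probes were parted by mean brightness into 4 parts. The second dimmest held 8 members, all of them above 0 with a median of 0.44. Of all 122 probes there, 50 were above 0, and their median was -0.14. The brightest part held 3 members with a median of 0.05, against -0.06 for all 123 probes there. The second brightest part held 2 members with a median of 0.07, against -0.06 for all 122 probes there. In the dimmest part 5 members had a median of 0.27 and all 123 probes one of -0.04. Only 2 of these 5 members, and 49 of these 123 probes, were detected on both arrays. Before normalization, all 18 detected members read higher on the male array, by 0.07 to 2.02 with a median of 0.755. The median of all detected probes was 0.37, so most of the chip read higher on that array too. By the size rule 74 of the 490 detected probes were then higher in the male gonad and 0 in the female. By brightness, the unnormalized medians of the members were 0.27 in the dimmest part, 1.16 in the second dimmest, 0.65 in the second brightest and 0.45 in the brightest. The dimmest members then differed less than the brightest. With scaling to the 75th percentile of all probes the medians were -0.29 in the dimmest part (4 of 5 members below 0), 0.60 in the second dimmest and -0.10 in the brightest. The 2 members of the second brightest part then differed by 0.075 (ccr-miR-15b) and 0.12 (dre-miR-15b). The 8 members of the second dimmest part were above 0 under all of these scalings. The dim members are also relatives of brighter ones: from dre-miR-16b, dre-miR-16c is 1 base away and dre-miR-457b 3 of 22 (U1A, G10A and U17C). Control probes of the chip with M in their names, detected on both arrays, had a male to female ratio with a median of 2.01 (19 of 20 above 1), and those with P in their names one of 0.844 (2 of 15 above 1). The part of this in the family's differences was not tested.

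**Figure D3:**
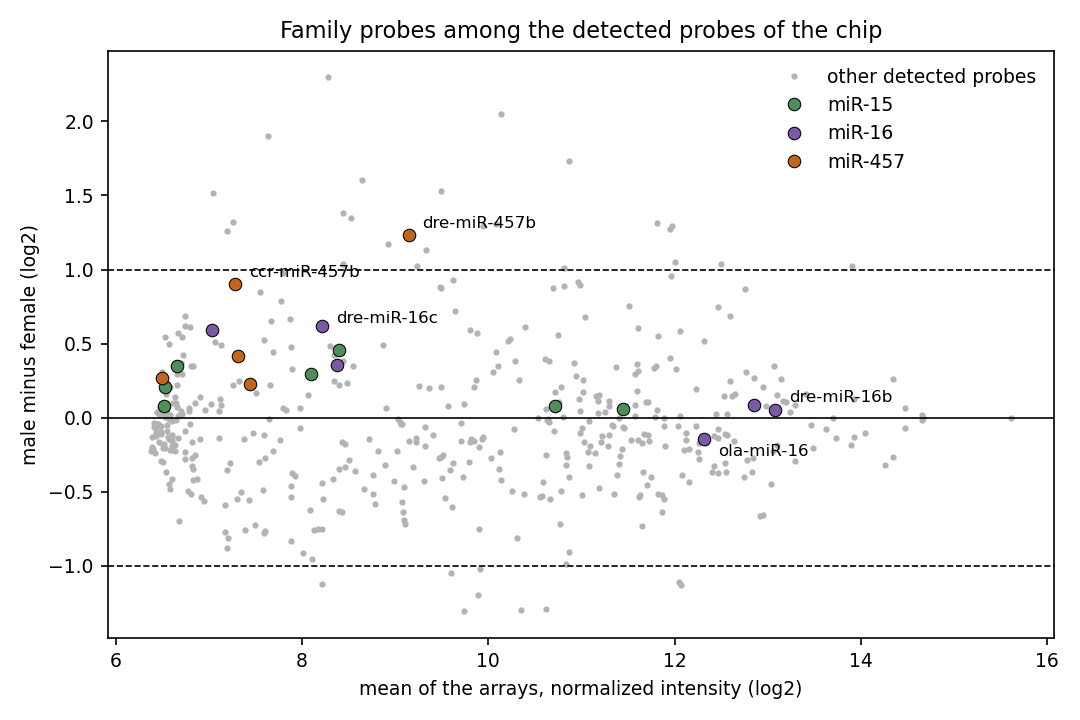
Difference of normalized log2 intensity, male minus female (vertical axis), against the mean of the 2 arrays (horizontal axis) for the 490 detected probes; grey points are probes outside the family and coloured points the 18 detected members. With this normalization the bright members lie near 0, whereas those below about 10 on the horizontal axis lie above 0, with dre-miR-457b at 1.23.

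The relatives miR-103 and miR-107, which are often placed with miR-15 and miR-16 in a wider group, lay on the other side of 0 after quantile normalization, a direction that turned with the scaling. All 6 of their probes were detected, none passed the rule, and their differences lay between -0.27 and -0.13 with a median of -0.16. Before normalization all 6 were above 0, at 0.46 to 0.53 with a median of 0.51, where the family median was 0.755 and that of all detected probes 0.37. With cyclic loess their median was -0.02 (2 of 6 above 0), and with scaling to the P control probes 0.75. The male and female gonads gave, for example, 9.73 ± 0.06 and 9.89 ± 0.09 for dre-miR-103. Their bases 2 to 8 read GCAGCAU. The letters AGCAGCA occurred anywhere in the target of 23 probes (3.47% of the chip), 17 of the family and these 6. The chip held no probe of miR-322, miR-424, miR-503 or miR-646.

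Other miRNAs linked to the cell cycle did not move as one. The let-7 list had 4 of 20 detected probes higher in the male gonad (dre-let-7g by 1.60, ola-let-7g by 1.38, dre-let-7c by 1.29 and dre-let-7h by 1.17) and a median of 0.13. Its 20 probes ran from -0.46 to 1.60, with 14 above 0. Every male spot lay above every female spot in 10 of them, and the reverse held in 3. For miR-34 and miR-449, 3 of 5 detected probes were higher in the male gonad (dre-miR-34b by 2.30, ipu-miR-34b by 1.73 and dre-miR-34c, detected there only), with a median of 1.52. The lowest of these 5 differed by -0.27. No probe passed in either direction among 30 detected of the miR-17 to miR-92 list (median -0.03), 3 of miR-26 (0.26) and 9 of miR-221 and miR-222 (-0.06). Before normalization the last 3 medians were 0.47, 0.50 and 0.43, and with scaling to the 75th percentile of all probes the medians of let-7 (-0.07) and miR-26 (-0.06) were below 0.

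Marker miRNAs of the tissue and of other cells differed between the arrays too. The gonad miRNA miR-202 was detected by 1 of 3 probes, ipu-miR-202, which was higher in the male by 1.90. Of 4 detected probes for male germ cell miRNAs 3 were higher in the male gonad, with summed intensities above empty spots of 6290 in the male gonad and 1187 in the female. These sums, here and below, were taken before normalization over every probe of a list, detected or not. Over all 663 probes of the chip they were 1353561 in the male gonad and 1049180 in the female. Both detected probes for the hepatocyte miRNA miR-122 were higher in the male, with sums of 489 and 75.3 in male and female. For kidney and gut epithelium 4 of 6 were higher in the female, with sums of 3598 in the male gonad and 5364 in the female. The erythroid list, of interest since miR-16 is plentiful in blood cells, had none of 6 past the rule, sums of 10411 in the male gonad and 10393 in the female, and a median difference of -0.36. Leukocyte markers had 1 of 12 higher in the male (median -0.11), and endothelium (-0.40), striated muscle (-0.24) and neural markers (-0.01) had none. The sign of several of these medians turned with the scaling: before normalization they were 0.55 for leukocytes, 0.20 for endothelium, 0.23 for striated muscle and 0.34 for the erythroid list, whereas kidney and gut stayed below 0 at -0.54. The part of such cells in the values of the family was not tested.

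The size of the family's difference depended on how the arrays were set level. Under the 13 alternatives plotted, the family median ran from 0.15 to 0.996 and exceeded the median of all detected probes each time. With a limit of 1.5-fold in place of 2-fold, 4 of 18 members were higher in the male gonad (the miR-457b and miR-16c targets of zebrafish and carp), against 10.2% of all detected probes. Without normalization 5 of 18 members passed the rule, against 15.1% of all detected probes, and after scaling to the P control probes 9 of 18, against 22.2%. The probe dre-miR-457b passed in all 16 alternatives that recompute its value, with differences of 1.20 to 2.27, and ccr-miR-457b in 7 of them (0.72 to 1.70). In the authors' deposited table dre-miR-457b read 746.8 in the male gonad and 254.3 in the female, 2.94-fold, and ccr-miR-457b 137 and 35.6, 3.85-fold. The authors' deposited table gives ratios of 0.99 for dre-miR-16b and 2.12 for dre-miR-16c. For the dim dre-miR-457a it gives 9.11, from 28.8 in the male gonad and 3.16 in the female.

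**Figure D4:**
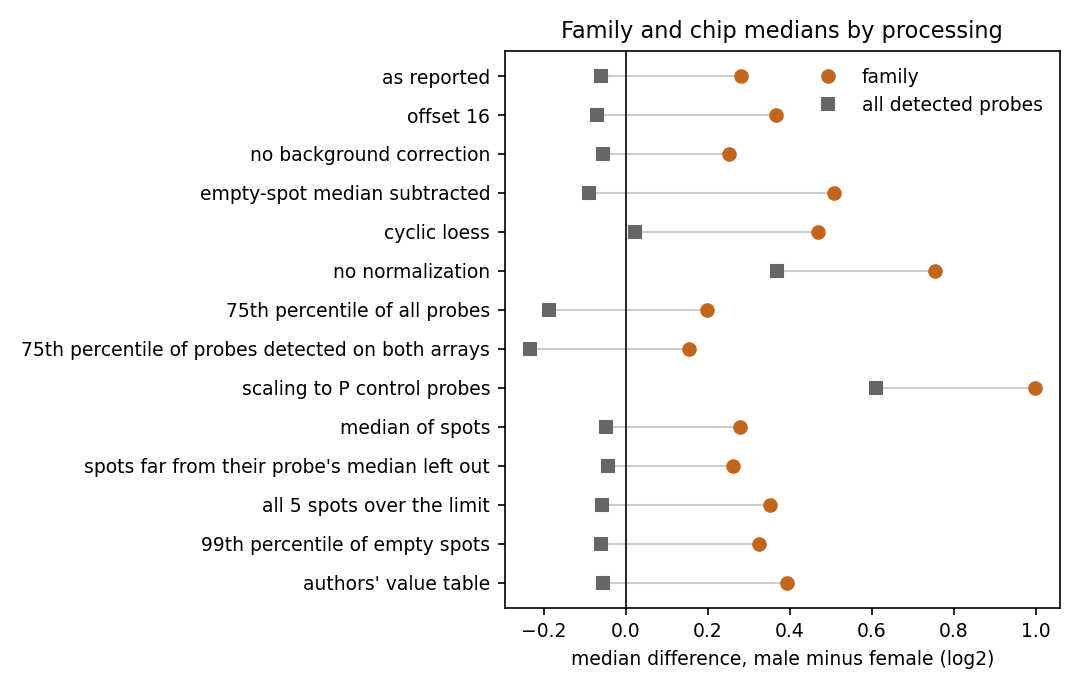
Median difference, male minus female, on the log2 scale (horizontal axis) for the detected family probes (circles) and for all detected probes of the chip (squares), as reported and under 13 other ways of processing. The circle lies to the right of the square in each row, from 0.15 with 75th percentile scaling over probes detected on both arrays to 0.996 with scaling to the P control probes. By construction the distance is the same without normalization, with either 75th percentile scaling and with the P control probes.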

How the data were processed

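Gonad RNA of 1 male and 1 female fish was read on 1 Cy3 array each. Per the labels' protocols, small RNAs were isolated by size, given a poly(A) tail and then a tag for staining. The deposited scanner files hold, per the file headers, the median intensity and pixel SD of each of 3968 spots, not background subtracted (empty spots had medians of 80.5 in the male and 86.7 in the female). Sources used here do not name the array software. The authors' table, also deposited, holds a linear intensity per probe, with medians of 150 and 138 for the male and female arrays. It correlated with the scanner values (r = 0.993 and 0.995), so scale and direction are clear. Its lowest value, 0.01, was shared by 10 and 17 probes, and its method and centring stay unknown.

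In R 4.3.3 with limma 3.58.1, intensities were corrected by normexp (offset 50, all spots), converted to log2, averaged over the 5 spots and quantile normalized over all 663 miRNA probes. Quantile normalization hides a global difference between the sexes. A probe was detected where 3 or more spots of 5 were over a limit, the 95th percentile of the 361 empty spots (113 male, 103 female). For probes detected on 1 array the fold is a lower bound, taken on the other array against the lowest detected level or, if higher, the probe's own. Where the probe's own level is used, the bound equals the measured ratio. The size rule was tested on simulated data. Members, lists, the size rule and the rule for named probes (every member, related probes, and list probes past the rule) were chosen with earlier results of these data known. The number of arrays limits the precision. Summaries used Python 3.11.15.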

Additional observations from a re-analysis of the deposited data

Results flagged for a closer look

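With 1 array per sex only repeat spots could be examined for values that stand apart, and Dixon's criterion marks about 1 in 20 groups of spots by chance. Of 40 groups (20 probes on 2 arrays), 5 had a spot whose gap to the nearest exceeded the 95% critical share of the range for 5 spots. On the male array these were ola-miR-16 (0.850, a low spot), ccr-miR-15a (0.720, a low spot) and dre-miR-457a (0.737, a low spot). On the female array they were ola-miR-15a (0.794, a high spot) and dre-miR-15a-3p (0.727, a high spot). Leaving out 1 repeat at a time moved the difference between male and female to between -0.24 and 0.23 for ola-miR-16, 0.39 and 0.53 for ccr-miR-15a, and 0.21 and 0.31 for dre-miR-457a.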

How the results depend on the processing

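Of the members, dre-miR-457b alone was higher in the male gonad by the size rule in the reported setting. There were 2 with offset 16, cyclic loess or the authors' table (dre-miR-457b with ccr-miR-457b), 3 with the empty-spot median subtracted, 4 with a 1.5-fold limit, 5 without normalization and 9 with scaling to the P control probes. For the authors' table, 50 was added to each value before log2, and overlap of spots could not be required. As deposited, its ratios also exceeded 2 for dre-miR-457a (9.11), fru-miR-15b (3.91), fru-miR-15a (3.81), ccr-miR-16c (3.25) and dre-miR-16c (2.12). The counts from that table depend on this addition. Over all detected probes the counts of male-higher and female-higher probes were 27 and 15 with offset 16, 30 and 4 with cyclic loess, 22 and 7 in the authors' table, 38 and 33 with subtraction, 50 and 38 with the 1.5-fold limit, 74 and 0 without normalization and 109 and 0 with the P control probes, against 23 and 8 as reported. The family median of 0.28 was 0.51 with subtraction, 0.47 with cyclic loess, 0.755 without normalization and 0.996 with the P control probes, and the median of all detected probes moved with it to -0.09, 0.02, 0.37 and 0.61. Leaving out each repeat spot gave 1 to 2 male-higher members, 0 female-higher members (0 to 0) and medians of 0.25 to 0.30; the second member, without repeat 1, was ccr-miR-457b. No alternative gave a female-higher member. Reduced to 12 distinct targets, the median was 0.22. Of 320 recomputed probe differences, 240 moved by less than the spot SD and 80 by more. No paired analysis was possible because each sex has 1 array. Intensity near the empty spots limits what can be said of dre-miR-15c, ola-miR-15a, dre-miR-15a-3p, fru-miR-15a and dre-miR-457a. The same limit holds on the female array for fru-miR-15b, ccr-miR-16c and ccr-miR-457b, at 18.5, 29.65 and 36.4 above empty spots.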
